A study of Mus musculus with 24 samples.

Results

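The 10 genes described here encode components, an inhibitor and receptors of the complement system. They were chosen by name: C1qa, C1qb, C1qc, C2, C3, C4b, Cfb, Serping1, C3ar1 and C5ar1. All 10 were present among the 49315 genes of the count tables, and all 10 were among the 22280 genes whose counts were high enough to test. They were followed across 24 brain tumours of mice by RNA sequencing of polyadenylated RNA.

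Every mouse carried an intracranial tumour grown from 200000 cells of CT-vIII, the CT-2A mouse glioma line transduced with firefly luciferase and the mouse form of EGFR variant III, a shortened and constantly active EGFR. Treatment was infused into the brain by an osmotic pump (convection-enhanced delivery) for 72 h from day 6 after implantation. The vehicle group received 100 µg of rat IgG2a control antibody in 2% mouse serum albumin. The other groups received the agonist CD40 antibody FGK45 (aCD40), the D2C7 immunotoxin (D2C7-IT, 0.2 µg), a toxin-linked antibody fragment that binds EGFR and its variant III, or D2C7-IT+aCD40, called the combination below. The labels give the aCD40 dose as a range, 10 to 300 µg, and do not tie a dose to a tumour. Tumours were taken when the pump was removed (day 0 after treatment) or 3 days later (day 3), with 3 tumours in each of the 8 groups. The tissue was not sorted, so fewer cells of a type and less RNA per cell cannot be told apart.

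Complement is a cascade of plasma and tissue proteins. In the classical pathway C1q, built of A, B and C chains encoded by C1qa, C1qb and C1qc, binds its target and starts the cleavage of C4 and C2. In the alternative pathway factor B (Cfb) takes the place of C2. Both paths cleave C3, whose fragments tag cells for uptake and signal through receptors such as C3AR1, while the C5 fragment signals through C5AR1. The C1 inhibitor, encoded by Serping1, blocks the proteases that C1q sets off. In the brain C1q is made mostly by microglia and macrophages, and C3 and C4 are also made by reactive astrocytes.

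The 3 C1q genes lay side by side on the minus strand of chromosome 4 of GRCm38, with C1qb from 136880129 to 136886187, C1qc from 136889804 to 136893065 and C1qa from 136895917 to 136898803. C4b (34728380 to 34743882), Cfb (34856374 to 34862518) and C2 (34862604 to 34898265) lay close together on chromosome 17. C3 lay on the same chromosome from 57203970 to 57228136. Serping1 was on chromosome 2 (84765387 to 84775444), C3ar1 on chromosome 6 (122847138 to 122856161) and C5ar1 on chromosome 7 (16246743 to 16259540).

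The promoters of C1qb and C1qc are shown because these genes kept almost fixed proportions across the tumours, and that of C3 because C3 had the widest range of the 10 genes. Each sequence is the 250 bases before the RefSeq start of the gene in GRCm38.p6, read 5′ to 3′ on the gene's strand. Capitals mark matches to the motifs searched on both strands.
C1qb (chr4:136886201-136886450, minus strand): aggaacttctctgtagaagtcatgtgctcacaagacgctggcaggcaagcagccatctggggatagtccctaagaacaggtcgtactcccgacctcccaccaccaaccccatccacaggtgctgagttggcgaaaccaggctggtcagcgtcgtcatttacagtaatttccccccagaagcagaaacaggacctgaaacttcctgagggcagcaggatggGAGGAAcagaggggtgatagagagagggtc
C1qc (chr4:136892915-136893164, minus strand): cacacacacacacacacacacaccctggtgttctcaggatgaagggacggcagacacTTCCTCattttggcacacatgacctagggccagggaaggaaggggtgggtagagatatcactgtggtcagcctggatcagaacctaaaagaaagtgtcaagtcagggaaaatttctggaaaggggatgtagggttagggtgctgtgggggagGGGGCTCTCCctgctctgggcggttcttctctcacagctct
C3 (chr17:57228137-57228386, minus strand): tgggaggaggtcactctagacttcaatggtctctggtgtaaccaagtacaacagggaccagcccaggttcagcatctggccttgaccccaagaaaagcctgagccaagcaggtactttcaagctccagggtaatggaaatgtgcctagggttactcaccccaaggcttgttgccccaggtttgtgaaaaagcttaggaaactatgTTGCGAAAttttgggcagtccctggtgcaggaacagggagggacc
The capitals in C1qb are the PU.1 core GAGGAA, from position -30 to -25 relative to the start. PU.1 is the myeloid transcription factor. The first capitals in C1qc are the same core on the other strand, from -193 to -188. The second are a match to the NF-kB motif from -41 to -32. The position given above for C1qc runs to 136893065, inside this window. By that position the NF-kB match lies within the gene and the PU.1 core before it. The capitals in C3 match the C/EBP motif TTGCNNAA, from -45 to -38. C/EBP factors take part in the acute phase response. Of 27025 promoters of this length, 23.1% held the PU.1 core, 9.55% the C/EBP motif, 7.01% the NF-kB motif and 7.18% the GAS motif TTCNNNGAA, which had no match in the 3 sequences. The promoter windows of C3ar1 and C5ar1 held none of these letters, and both also reach into the gene positions given above.

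Total counts ran from 24697576 to 48119840 per library. Vehicle day 3 tumours 2 and 3 and aCD40 day 3 tumour 1 stood apart from the other 21 libraries. Egfr, which the line's transgene also feeds, was at 283 to 343 CPM (read counts scaled to library size) in these 3 and at 13.1 to 50.8 CPM in the others. The summed level of 8 cell cycle genes was 1010 to 1310 CPM against 11.4 to 139 CPM, that of 8 monocyte or macrophage markers 659 to 1770 CPM against 53.3 to 492 CPM, that of 8 fibroblast or meningeal markers 1890 to 2330 CPM against 153 to 420 CPM, and that of 8 neuron markers 1960 to 3540 CPM against 4140 to 11300 CPM. The day 3 results of the complement genes are given with and without these 3 high-Egfr libraries. All 24 samples are labelled brain tumour, and Egfr was at or below 50.8 CPM in 21 of them.

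**Figure D1:**
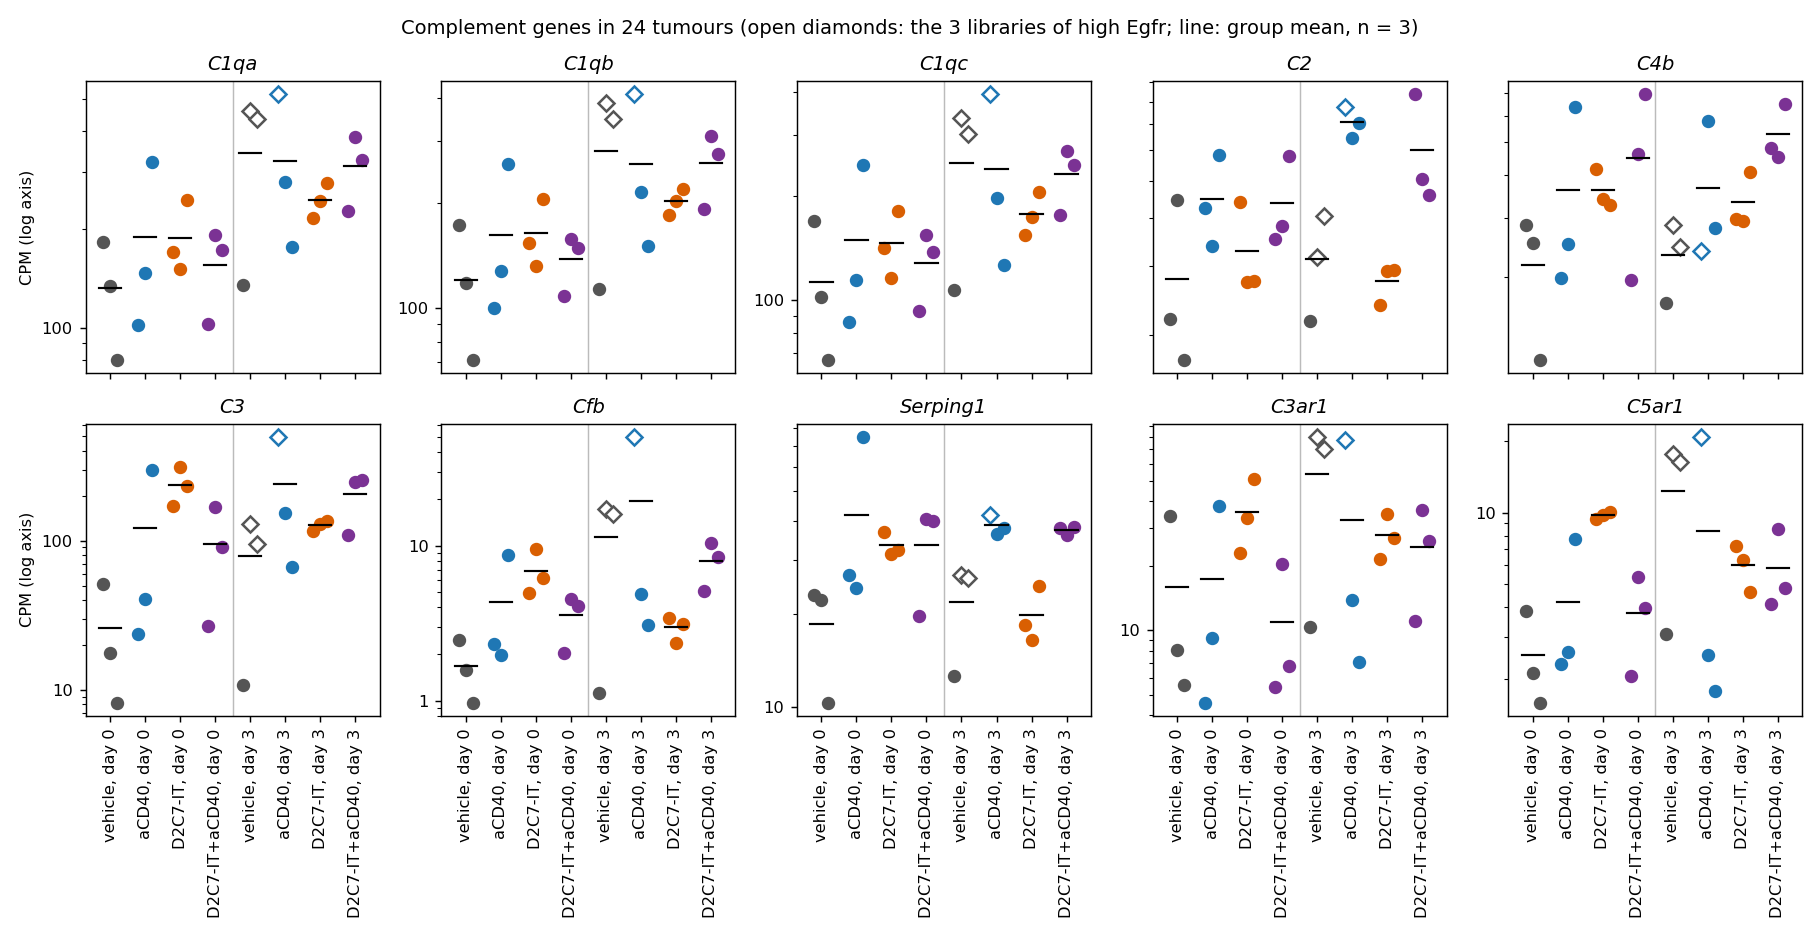
Level of each complement gene (CPM, log axis) in each of the 24 tumours, by treatment and day, with a line at the mean of the 3 tumours of a group and open diamonds for the 3 high-Egfr libraries. The diamonds are the 3 highest of all 24 values for C1qa, C1qb, C1qc, Cfb, C3ar1 and C5ar1. They lie inside the range of the other tumours for C2, C4b and Serping1.

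Per kilobase of exon, the mean level over the 24 tumours was highest for C1qa at 227 CPM per kb, then C1qb at 182, C1qc at 92.8, C4b at 62.6 and C3 at 27.5 CPM per kb. Serping1 stood at 13.2, C3ar1 at 6.35, Cfb at 2.57, C5ar1 at 2.57 and C2 at 1.09 CPM per kb. C3 spanned 60.6-fold from its lowest to its highest tumour and Cfb 51.8-fold, whereas C1qb spanned 5.76-fold and C2 4.86-fold. The vehicle day 0 tumour 3 had the lowest level of all 24 for 9 of the 10 genes, C3ar1 being the exception, and it is also the library of fewest total counts. Levels of C2 and Cfb are uncertain because a joined gene model, Gm20547, has all 3902 of its exon bases inside exons of C2 and Cfb, covering 79.5% of those of Cfb and 42.8% of those of C2, and holds 0 counts in all 24 libraries. No source used here states how reads inside more than 1 gene were counted. C4b has a near-identical copy, C4a, which held 2.75 to 7.5 CPM.

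The 3 C1q chains, the recognition unit of the classical pathway, kept almost the same proportions in every tumour. The ratio of C1qb to C1qa in CPM ran from 0.774 to 1.05 with a coefficient of variation of 7.28% over 24 tumours, and that of C1qc to C1qa from 0.7 to 0.927 with 7.67%. The level they shared varied: C1qa was at 183, 134 and 79.8 CPM in the 3 vehicle day 0 tumours, at 102, 147 and 320 CPM after aCD40, at 170, 151 and 245 CPM after D2C7-IT and at 103, 192 and 173 CPM after the combination. All these day 0 groups overlapped. At day 3 C1qa was at 135, 458 and 433 CPM in vehicle, 516, 278 and 177 CPM in aCD40, 217, 244 and 276 CPM in D2C7-IT and 228, 381 and 325 CPM in the combination. The high vehicle and aCD40 values are the high-Egfr libraries, and the other 9 day 3 tumours lay between 135 and 381 CPM. The combination was the treatment whose 3 day 3 tumours all lay above its 3 day 0 tumours for C1qa, at a log2 fold change of 1.00 ± 0.48 (SE) that did not pass the test (edgeR quasi-likelihood, unadjusted p = 0.052, adjusted p = 1.0).

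C4b, the protein that C1 cleaves first, was at 285, 252 and 114 CPM in vehicle day 0 tumours. It was at 199, 251 and 635 CPM after aCD40, at 416, 341 and 326 CPM after D2C7-IT and at 196, 461 and 693 CPM after the combination. The D2C7-IT tumours lay above all 3 vehicle tumours, and the aCD40 and combination groups spread across them. At day 3 vehicle stood at 168, 286 and 246 CPM and the combination at 481, 454 and 649 CPM, without overlap. That difference was 1.18 ± 0.48 on the log2 scale (edgeR, unadjusted p = 0.023, adjusted p = 0.15). The high-Egfr libraries were not high in C4b: they held 239 to 286 CPM, and 17 of the 21 others lay above the lowest of them. The ratio of C4b to C1qa accordingly ran from 0.464 to 0.625 in them, against 1.19 or more in the other 21.

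C2, the protease partner of C4, had its highest group means in the groups given aCD40 and taken at day 3. It was at 7.73, 6.43 and 7.04 CPM in aCD40 and at 8.35, 5.06 and 4.58 CPM in the combination, against 2.17, 3.17 and 4.06 CPM in vehicle and 2.38, 2.92 and 2.94 CPM in D2C7-IT. All 6 tumours given aCD40 lay above all 6 tumours without it, which held for 0.126% of all genes tested and for 2 of the 10 members. The log2 fold change was 1.17 ± 0.35 for aCD40 against vehicle (edgeR, unadjusted p = 0.0039, adjusted p = 1.0). It was 0.93 ± 0.35 for the combination against vehicle (edgeR, unadjusted p = 0.016, adjusted p = 0.13) and 1.12 ± 0.35 for the combination against D2C7-IT (edgeR, unadjusted p = 0.0052, adjusted p = 1.0). None passed the threshold over all genes. At day 0 the groups overlapped: vehicle held 2.2, 4.45 and 1.72 CPM, aCD40 4.24, 3.39 and 5.81 CPM, D2C7-IT 4.4, 2.74 and 2.75 CPM, and the combination 3.53, 3.82 and 5.77 CPM. The difference between the days in the effect of aCD40 on C2 was 0.49 ± 0.50 (edgeR, unadjusted p = 0.34), so the days were not shown to differ. C2 did not follow the high-Egfr libraries, which held 3.17 to 7.73 CPM. Its counts were low, from 39 to 343 per library.

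C3, where the pathways meet, was the member furthest from vehicle after D2C7-IT at day 0. Vehicle tumours held 51.4, 17.7 and 8.2 CPM and D2C7-IT tumours 170, 313 and 231 CPM, so that the lowest D2C7-IT tumour lay above the highest vehicle tumour. The log2 fold change was 3.20 ± 1.04, a 9.22-fold higher level (edgeR, unadjusted p = 0.0062, adjusted p = 0.62). Leaving out 1 tumour of either group moved it between 2.78, without vehicle tumour 3, and 4.20, without vehicle tumour 1. The aCD40 group held 23.8, 40.6 and 300 CPM and the combination 26.7, 167 and 91.3 CPM, both overlapping vehicle. The fold change of aCD40 at day 0, 2.23 ± 1.00 with all tumours, was 0.32 without aCD40 tumour 3. The combination was lower than D2C7-IT alone in all 3 tumours, by a log2 difference of -1.32 ± 0.97 (edgeR, unadjusted p = 0.19). The departure from additivity of the agents on the log2 scale was -3.56 ± 1.39 (edgeR, unadjusted p = 0.019, adjusted p = 1.0), and -1.64 without aCD40 tumour 3.

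At day 3 C3 was at 10.7, 129 and 95.5 CPM in vehicle, 497, 154 and 66.9 CPM in aCD40, 117, 129 and 135 CPM in D2C7-IT and 109, 249 and 257 CPM in the combination. All groups overlapped vehicle. The 1 vehicle day 3 tumour of low Egfr had the lowest level of the 12. Without the 3 high-Egfr libraries it was the whole vehicle group, and the log2 difference from it was 3.39 for aCD40, 3.59 for D2C7-IT and 4.30 for the combination (edgeR, unadjusted p = 0.039, 0.029 and 0.014), with no adjusted p under 0.05 and the spread of that lone tumour assumed to be that of the other groups. C3 also differed from C1q in its balance. The ratio of C3 to C1qa was 0.941 to 2.08 in the D2C7-IT day 0 tumours against 0.103 to 0.281 in vehicle day 0, and 0.489 to 0.542 in the D2C7-IT day 3 tumours.

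**Figure D2:**
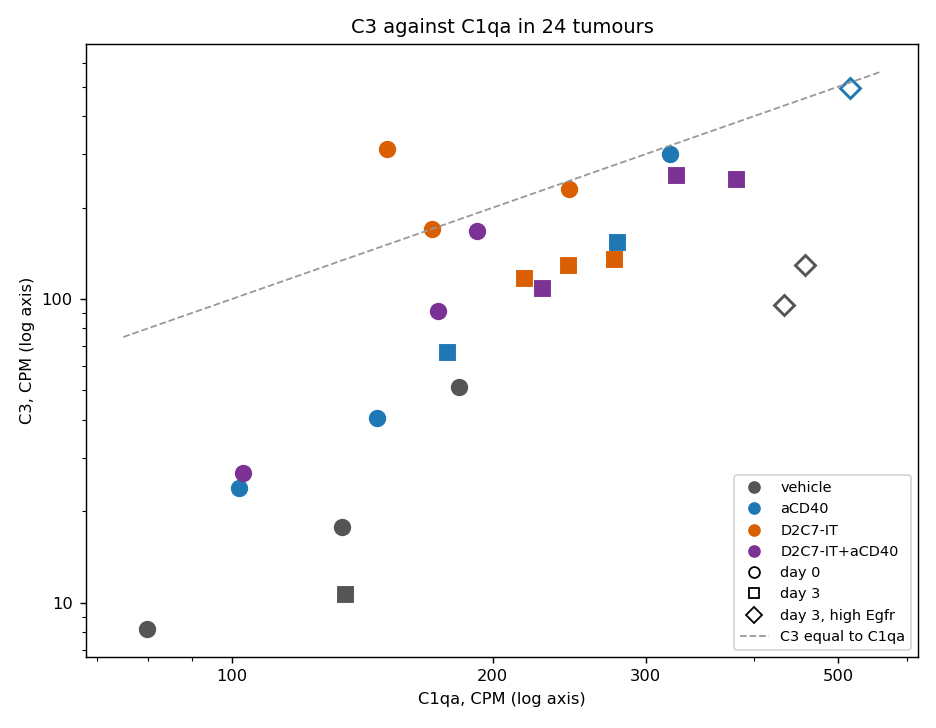
C3 against C1qa in each of the 24 tumours (CPM, log axes), colours for treatment, circles for day 0, squares for day 3 and open diamonds for the 3 high-Egfr libraries, with a dashed line where the levels are equal. The D2C7-IT day 0 tumours have ratios of C3 to C1qa of 0.941 to 2.08, and the vehicle tumours of both days lie below the line, with ratios of 0.0787 to 0.282.

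Cfb, the alternative pathway protease, was at 2.44, 1.57 and 0.97 CPM in vehicle day 0 tumours and at 4.97, 9.46 and 6.16 CPM after D2C7-IT, without overlap. The log2 fold change was 2.04 ± 0.94 (edgeR, unadjusted p = 0.043, adjusted p = 1.0). The aCD40 tumours held 2.3, 1.98 and 8.73 CPM and the combination 2.03, 4.54 and 4.09 CPM, both overlapping vehicle. At day 3 the 3 high-Egfr libraries held 17.1 and 16 CPM (vehicle) and 50.3 CPM (aCD40), above every other tumour. Vehicle tumour 1 held 1.11 CPM, aCD40 tumours 2 and 3 held 4.89 and 3.08 CPM, D2C7-IT 3.42, 2.35 and 3.14 CPM, and the combination 5.06, 10.4 and 8.42 CPM. The combination lay above D2C7-IT in all 3 tumours, at a log2 difference of 1.42 ± 0.91 (edgeR, unadjusted p = 0.14). D2C7-IT against vehicle at day 3 stood at -1.94 ± 0.93 with all libraries (edgeR, adjusted p = 0.18). It stood at -2.47 ± 0.86 without vehicle tumour 1 (edgeR, adjusted p = 0.034), a refit whose share of all genes called is not given. It stood at 1.43 without the high-Egfr libraries, so its sign rests on which vehicle libraries are kept.

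Serping1, the C1 inhibitor, was at 23, 22.2 and 10.3 CPM in vehicle day 0 tumours and at 26.7, 24.2 and 75.1 CPM after aCD40, at 36.8, 31.3 and 32.2 CPM after D2C7-IT and at 19.7, 40.7 and 39.9 CPM after the combination. The aCD40 and D2C7-IT tumours all lay above vehicle. The fold changes were 1.18 ± 0.40 for aCD40 (edgeR, unadjusted p = 0.0082, adjusted p = 1.0), which was 0.46 without aCD40 tumour 3, and 0.85 for both D2C7-IT and the combination. At day 3 it was at 12.6, 26.8 and 26.1 CPM in vehicle, 41.8, 36.4 and 38.1 CPM in aCD40, 18.4, 16.5 and 24.7 CPM in D2C7-IT and 37.9, 36.0 and 38.3 CPM in the combination. As with C2, the 6 day 3 tumours given aCD40 lay above the 6 without it. The log2 difference was 0.83 ± 0.40 for aCD40 against vehicle (edgeR, unadjusted p = 0.051) and 0.91 ± 0.40 for the combination against D2C7-IT (edgeR, unadjusted p = 0.034, adjusted p = 1.0). D2C7-IT tumours were lower at day 3 than at day 0 without overlap, at -0.75 ± 0.40 (edgeR, unadjusted p = 0.074).

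The receptors C3ar1 and C5ar1 bind the small fragments C3a and C5a, and both are carried by myeloid cells. C5ar1 was at 3.86, 2.12 and 1.59 CPM in vehicle day 0 tumours and at 9.39, 9.79 and 10.1 CPM after D2C7-IT, without overlap. The log2 fold change was 1.95 ± 0.78 (edgeR, unadjusted p = 0.023, adjusted p = 0.91). The combination, at 2.06, 5.35 and 3.98 CPM, lay below D2C7-IT in all 3 tumours at -1.36 ± 0.77 (edgeR, unadjusted p = 0.093), and aCD40 held 2.32, 2.59 and 7.74 CPM. C3ar1 was at 34.2, 8.11 and 5.55 CPM in vehicle, 4.59, 9.2 and 38.0 CPM in aCD40, 23, 33.4 and 50.8 CPM in D2C7-IT and 5.43, 20.4 and 6.79 CPM in the combination. Its D2C7-IT tumours overlapped vehicle through vehicle tumour 1 and lay above the combination, which differed from D2C7-IT by -1.72 ± 0.96 (edgeR, unadjusted p = 0.09).

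At day 3 C5ar1 was at 3.09, 17.6 and 16.3 CPM in vehicle, 20.8, 2.52 and 1.77 CPM in aCD40, 7.2, 6.29 and 4.65 CPM in D2C7-IT and 4.11, 8.56 and 4.82 CPM in the combination. C3ar1 was at 10.4, 80.1 and 70.6 CPM, 77.5, 13.8 and 7.09 CPM, 21.6, 34.9 and 26.9 CPM and 11.1, 36.3 and 26.2 CPM in the same order of groups. The high-Egfr libraries were the highest for both receptors. Within aCD40 at day 3, tumours 2 and 3 were lower in C5ar1 than any vehicle day 3 tumour. Without aCD40 tumour 1 the difference from vehicle was -2.52 ± 0.69 and passed the test (edgeR, adjusted p = 0.045). That refit drops the high-Egfr library of aCD40 and keeps those of vehicle, and its share of all genes called is not given. The difference was -0.51 without all 3 high-Egfr libraries.

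At day 0 most fitted fold changes of the members against vehicle were above 0, and none passed the test over all genes. The comparisons share the vehicle tumours, and 23 of 45 pairs of members had r of at least 0.8 within groups. Members on one side of 0 are therefore not separate observations. Over the 19 comparisons of this report, 46.2% to 54.7% of all genes tested were higher. After D2C7-IT 10 of 10 were higher, against 48.7% of all genes tested, with a median log2 fold change of 0.79 against -0.01. edgeR called 0 members and 0.0808% of all genes, DESeq2 called 0 members and 0.619% of all genes, and 4 of 10 had an unadjusted p under 0.05 (C3, C5ar1, Cfb and Serping1) against 4.52% of all genes. For 5 of 10, those 4 and C4b, the 3 treated tumours lay above the 3 vehicle tumours, which held for 11.0% of all genes. The C1q genes were at 0.37 to 0.51 and C2 at 0.24. After aCD40 10 of 10 were higher (50.5% of genes) with a median of 0.71. edgeR called 0 members and 0.0% of genes, DESeq2 0 members and 0.0808%, 2 of 10 had an unadjusted p under 0.05 (1.36% of genes), and 1 did not overlap (3.99%). Without aCD40 tumour 3, 5 were higher and 5 lower, with a median of 0.0. That tumour held 492 CPM of summed monocyte or macrophage markers against 93.4 and 99.0 CPM in the other 2, and 1620 CPM of 14 interferon-gamma responsive genes against 332 and 433 CPM. Its choroid plexus markers summed to 862 CPM against 29.8 and 15.6 CPM, and its cell cycle genes to 139 CPM against 12.4 and 25.8 CPM. The part of these in the result was not tested. After the combination 9 of 10 were higher (53.8% of genes) with a median of 0.61. edgeR called 0 members and 0.0% of genes, DESeq2 0 members and 0.121%, 2 of 10, C4b (1.05 ± 0.47) and Serping1, had an unadjusted p under 0.05 (3.03%).

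**Figure D3:**
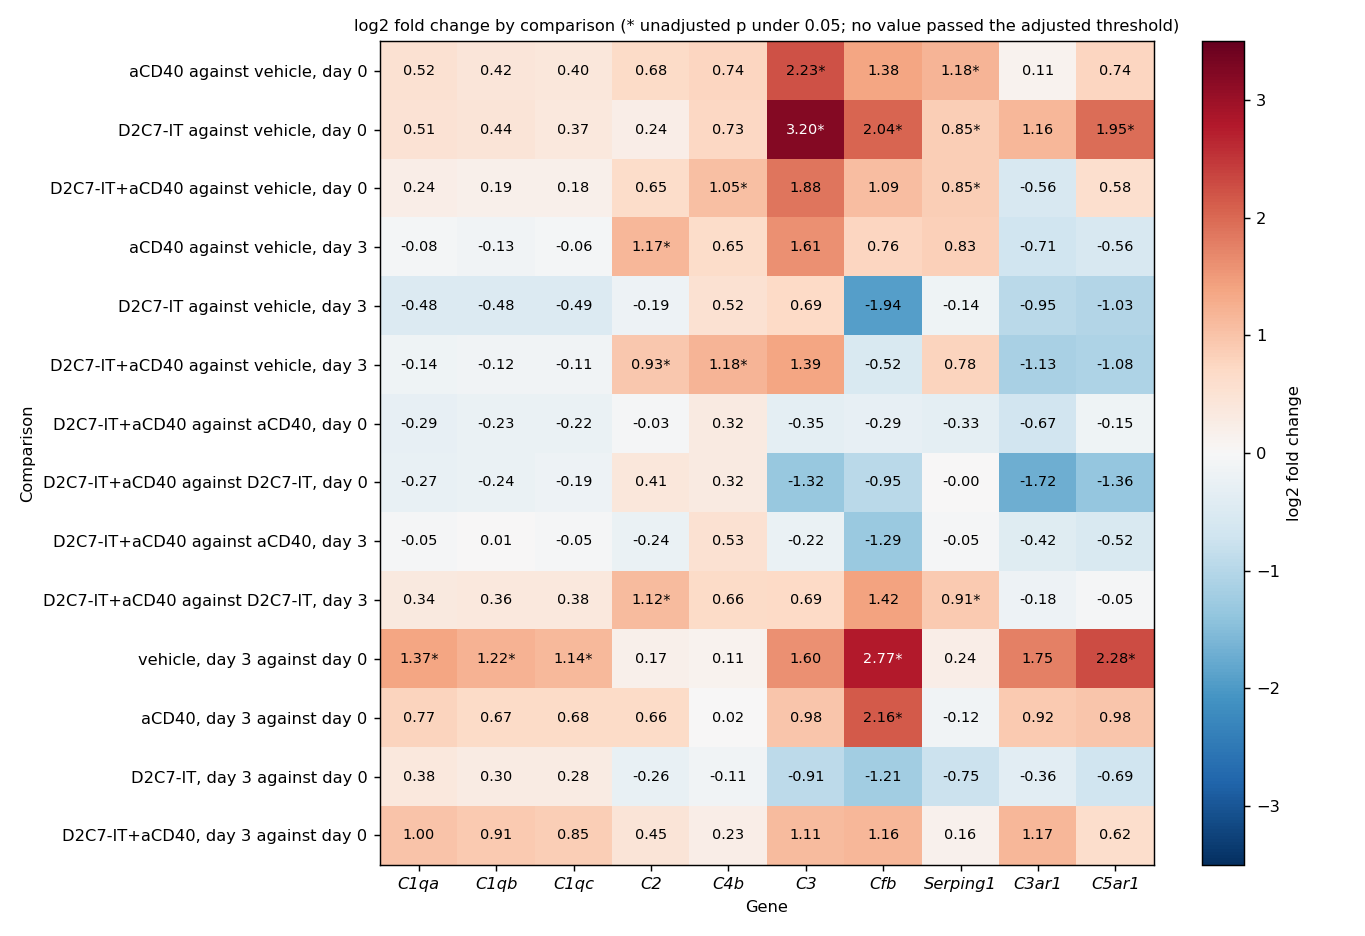
Fitted log2 fold change of each complement gene (columns) in 14 comparisons (rows), on a colour scale from blue (lower in the first-named group) to red (higher), with an asterisk for an unadjusted edgeR p under 0.05. The row of D2C7-IT against vehicle at day 0 is red throughout, from 0.24 for C2 to 3.20 for C3, and the row of D2C7-IT against vehicle at day 3 is blue except for C3 at 0.69 and C4b at 0.52.

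At day 3 the members did not stand on one side of vehicle. After aCD40 5 were higher and 5 lower, with a median of 0.30. edgeR called 0 members and 0.0% of genes, DESeq2 0 members and 0.153%, 1 of 10 (C2) had an unadjusted p under 0.05 (1.91%), and 2, C2 and Serping1, lay without overlap above vehicle (1.58%). After D2C7-IT 2 were higher and 8 lower with a median of -0.48. edgeR called 0 members and 0.0% of genes, DESeq2 0 members and 12.9% of genes, 0 had an unadjusted p under 0.05 against 28.2% of genes, and 1, C4b at 0.52 ± 0.47, lay without overlap above vehicle (7.43%). After the combination 4 were higher and 6 lower with a median of -0.11. edgeR called 0 members and 0.0404% of genes, DESeq2 0 members and 7.72%, 2 (C2 and C4b) had an unadjusted p under 0.05 against 24% of genes, and 3, these and Serping1, lay without overlap above vehicle (8.06%). In the D2C7-IT and combination comparisons the members' share at an unadjusted p under 0.05 was thus no higher than that of all genes.

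These day 3 values turned on the high-Egfr libraries. Without them the median log2 fold change against the 1 remaining vehicle tumour was 1.07 for aCD40 with 9 of 10 higher, 0.93 for D2C7-IT with 10 of 10 higher and 1.38 for the combination with 10 of 10 higher. No member passed the adjusted threshold. The log2 fold changes ran from -0.51 to 3.39 for aCD40, from 0.35 to 3.59 for D2C7-IT and from 0.94 to 4.30 for the combination.

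**Figure D4:**
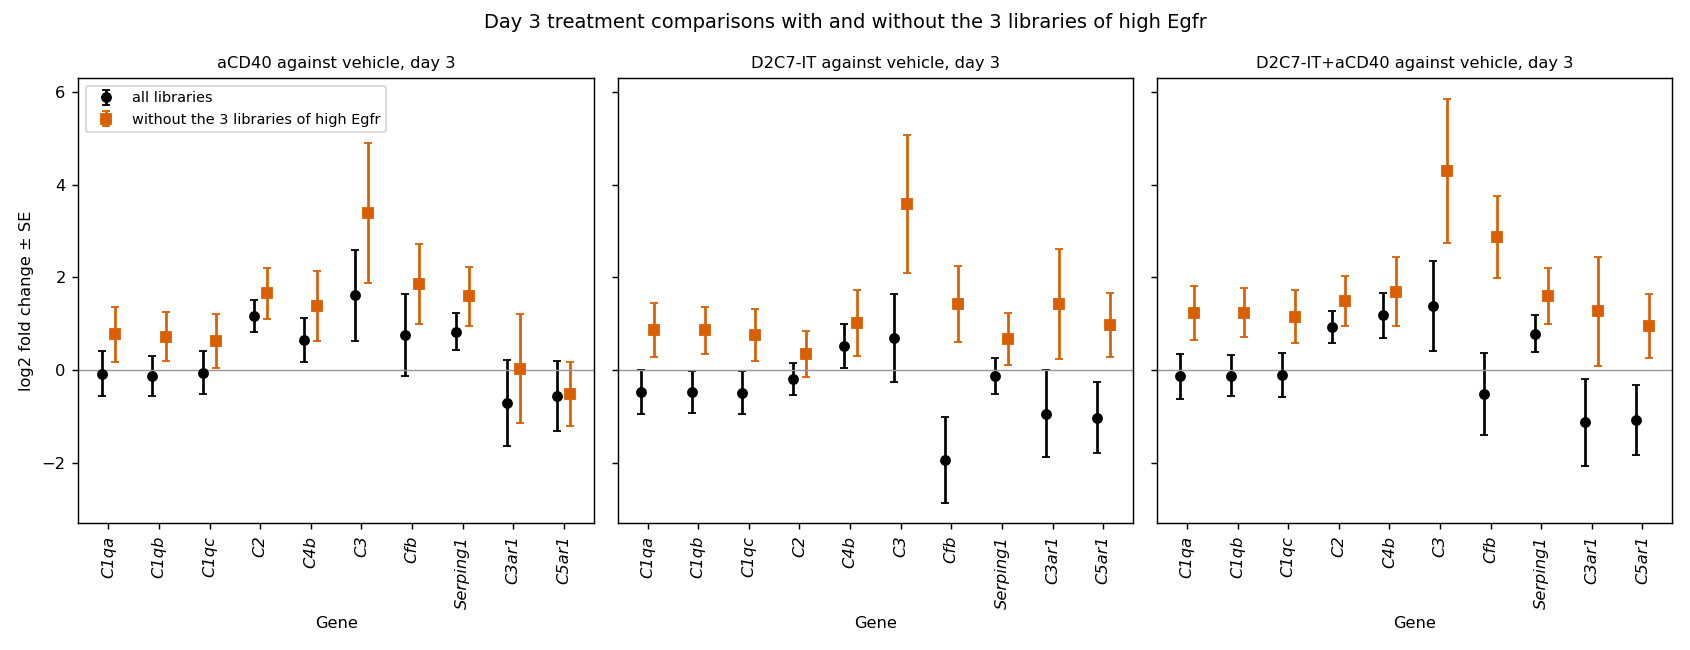
Log2 fold change against vehicle at day 3, with its SE, for each complement gene and treatment, from all libraries (black circles) and without the 3 high-Egfr libraries (orange squares). The median moves from -0.48 to 0.93 for D2C7-IT and from -0.11 to 1.38 for the combination. C2, C3, C4b and Serping1 after aCD40 or the combination lie above 0 both ways.

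The combination was also set against each agent alone. Against D2C7-IT at day 0, 8 of 10 were lower with a median of -0.26. edgeR called 0 members and 0.0% of genes, DESeq2 0 members and 0.0943%, 0 had an unadjusted p under 0.05 (2.77%), and 4 of 10 (C3, C3ar1, C5ar1 and Cfb) lay without overlap below D2C7-IT, against 8.53% of genes. Against D2C7-IT at day 3, 8 of 10 were higher with a median of 0.52. edgeR called 0 members and 0.0% of genes, DESeq2 0 members and 0.0135%, 2 (C2 and Serping1) had an unadjusted p under 0.05 (2.44%), and 4 (these, C4b and Cfb) lay without overlap above D2C7-IT (6.27%). Neither D2C7-IT nor the combination at day 3 holds a high-Egfr library. Against aCD40, 9 of 10 were lower at day 0 with a median of -0.26 and 8 of 10 were lower at day 3 with a median of -0.14. edgeR called 0 members and 0.0% of genes on both days, DESeq2 0 members with 0.0314% and 0.992% of genes, and 0 members had an unadjusted p under 0.05 against 0.884% and 11.1% of genes. The median turned to 0.51 at day 0 without aCD40 tumour 3 and to 0.52 at day 3 without the high-Egfr libraries. For Cfb at day 3 the log2 difference was -1.29 with a 95% interval of -3.20 to 0.63.

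Between the days, the vehicle group had the largest median of the 4 treatments. All 10 members were higher at day 3, with a median of 1.30. edgeR called 0 members and 0.0% of genes, while 5 of 10 had an unadjusted p under 0.05 against 30.2% of all genes. DESeq2 called 3 (C1qa, C5ar1 and Cfb) and 11.1% of genes. The log2 fold changes were 2.77 ± 0.96 for Cfb, 2.28 ± 0.79 for C5ar1 and 1.37 ± 0.49 for C1qa (edgeR, adjusted p = 0.11 for each). Without vehicle day 3 tumour 1, edgeR called 5 members (C1qa, C1qb, C1qc, C5ar1 and Cfb). That refit keeps only high-Egfr tumours in vehicle at day 3. Its share of all genes called is not given, so the count is not read as particular to the members. Without the high-Egfr libraries the median was -0.38 with 2 of 10 higher and 0 called.

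In the aCD40 group 9 of 10 were higher at day 3 with a median of 0.73. edgeR called 0 members and 0.0583% of genes, DESeq2 0 members and 0.548%, 1 (Cfb, 2.16 ± 0.93) had an unadjusted p under 0.05 (11.6%), and 1 (C2) lay without overlap above day 0 (5.05%). The median was 1.31 without aCD40 day 0 tumour 3 and -0.01 without the high-Egfr library of the group. In the D2C7-IT group 7 of 10 were lower at day 3 with a median of -0.31. edgeR called 0 members and 0.00449% of genes, DESeq2 0 members and 0.121%, 0 had an unadjusted p under 0.05 (3.51%), and 4 (C3, C5ar1, Cfb and Serping1) lay without overlap below day 0, against 6.36% of genes. In the combination 10 of 10 were higher with a median of 0.88. edgeR called 0 members and 0.0% of genes, DESeq2 0 members and 0.278%, 0 had an unadjusted p under 0.05 (4.66%), and 4 lay without overlap above day 0 (7.07%), the 3 C1q genes and Cfb.

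The difference between the days in the effect of D2C7-IT was below 0 for 10 of 10 members with a median of -0.99. edgeR called 0 members and 0.0% of genes, DESeq2 0 members and 0.413%, and 2 had an unadjusted p under 0.05 (17.6%): Cfb at -3.97 ± 1.32 and C5ar1 at -2.97 ± 1.09 (edgeR, adjusted p = 0.28 for both). Both were called without vehicle day 3 tumour 1, a refit whose share of all genes called is not given. Without the high-Egfr libraries Cfb and C5ar1 stood at -0.60 and -0.97 and the median at 0.28. The difference had a median of -0.58 for aCD40 and -0.34 for the combination. For these edgeR called 0 members and 0.0% of genes, DESeq2 0 members with 0.0314% and 0.0449% of genes, and 0 members had an unadjusted p under 0.05 against 1.22% and 8.05% of genes. Without the high-Egfr libraries these medians were 0.34 and 0.98. Departure from additivity had a median of -0.99 at day 0, with 10 of 10 below 0, and of 0.43 at day 3, with 8 of 10 above 0. edgeR called 0 members and 0.0% of genes on both days, and DESeq2 called 0 members with 0.0314% and 0.0% of genes. At day 0 2 members (C3 and Serping1) and at day 3 0 members had an unadjusted p under 0.05, against 1.62% and 1.13% of genes. The day 0 median was -0.33 without aCD40 tumour 3, and the day 3 median was -0.41 without the high-Egfr libraries.

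Other gene groups were summed beside the members. After D2C7-IT at day 0, 12 of 12 NF-kB and acute phase genes were higher than in vehicle, with a median log2 fold change of 3.5, and their summed level was 640 to 968 CPM against 70.4 to 165 CPM. edgeR called 0 of them (0.0808% of all genes) and DESeq2 7 (0.619%), and 11 had an unadjusted p under 0.05 (4.52%). The 14 interferon-gamma responsive genes summed to 712 to 952 CPM after D2C7-IT against 131 to 498 CPM in vehicle. They summed to 332 to 1620 CPM after aCD40 and 502 to 1500 CPM after the combination. Their median log2 fold change was 0.66 after D2C7-IT, 1.26 after aCD40 and 1.63 after the combination. Endothelial markers summed to 355 to 399 CPM after D2C7-IT, 365 to 449 CPM after aCD40 and 340 to 421 CPM after the combination, all above the 230 to 275 CPM in vehicle. The sum of 8 neutrophil markers was 37.2 to 42.7 CPM against 11.9 to 31.3 CPM. Of these, Cxcr2, Ly6g and Retnlg each had a median under 0.1 CPM over all 24 libraries. The sum of 8 microglia markers was 383 to 543 CPM against 304 to 570 CPM, and that of 8 monocyte or macrophage markers 186 to 444 CPM against 53.3 to 214 CPM. After the combination at day 3, 14 of 14 interferon-gamma responsive genes were higher than after D2C7-IT with a median of 1.98. edgeR called 0 of them (0.0% of all genes), DESeq2 0 (0.0135%), and 8 had an unadjusted p under 0.05 (2.44%). Their summed level was 1180 to 1890 CPM against 378 to 412 CPM. Vehicle at day 3, which holds high-Egfr libraries, ran from 249 to 2990 CPM. The median log2 fold change of these genes for D2C7-IT against that group was -2.22. In the liver, the main source of plasma complement, Alb is the leading transcript. Alb, Fgb and Serpina1a each had a median under 0.1 CPM over all 24 libraries. The summed hepatocyte list, which shares Ttr with the choroid plexus list, ran from 1.16 to 1080 CPM. The part of these cells and programmes in the members' levels was not tested.

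Likeness was described by Pearson's r of log2 CPM deviations from group means. The tumours share libraries, depth and tissue makeup, so r is given as a description over 24 libraries, and over the 18 outside the vehicle and aCD40 day 3 groups that hold the high-Egfr libraries. The C1q genes had r = 0.99 with each other in both sets. C3 had 0.95 with C1qa (0.91 over 18), C3ar1 0.95 with C1qc (0.91), and Cfb 0.96 with C5ar1 (0.89). C4b was most like Serping1, at 0.82 and 0.93. C2 stood apart, with 0.14 to 0.65 against the others over 24 libraries and -0.08 to 0.59 over 18.

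The 3 tested genes most like each member, among 14430 with a mean log2 CPM of at least 1, were taken for all members. Beside the other C1q genes, C1qa was most like Irf8 (r = 0.98), a myeloid transcription factor. C1qb (0.98) and C1qc (0.99) were most like Ctss, a lysosomal protease of microglia and macrophages. Against the means of the gene lists over 24 libraries, the C1q genes had r = 0.6 to 0.64 for microglia. It was 0.92 to 0.94 for monocytes or macrophages, 0.92 to 0.95 for cell cycle and 0.94 to 0.95 for interferon-gamma responsive genes. For T cells r was 0.85 to 0.86, and for neurons -0.67 to -0.66. The part of each in this likeness was not tested. C3 was most like Hvcn1, Cybb, a subunit of the phagocyte oxidase, and Rab20 (all 0.98). C3ar1 was most like Apobec1, Tyrobp, a myeloid signalling adaptor, and Cyba (all 0.98). C5ar1 was most like Syngr2, Ccdc88b and Sh3bp2 (all 0.98). Cfb was most like Dtx3l (0.99), Gbp9, an interferon-inducible GTPase, and Ctsc (both 0.98), and these values were 0.95, 0.94 and 0.92 over 18 libraries. Serping1 was most like Hacd4 (0.89), Gfap, the astrocyte filament gene (0.86), and Alg14 (0.86). C4b was most like Tmem63a (0.92), Gatm and Adamtsl4 (both 0.90), and C2 most like Rxra (0.82), Slc25a1 (0.79) and Rmi1 (0.78).

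**Figure D5:**
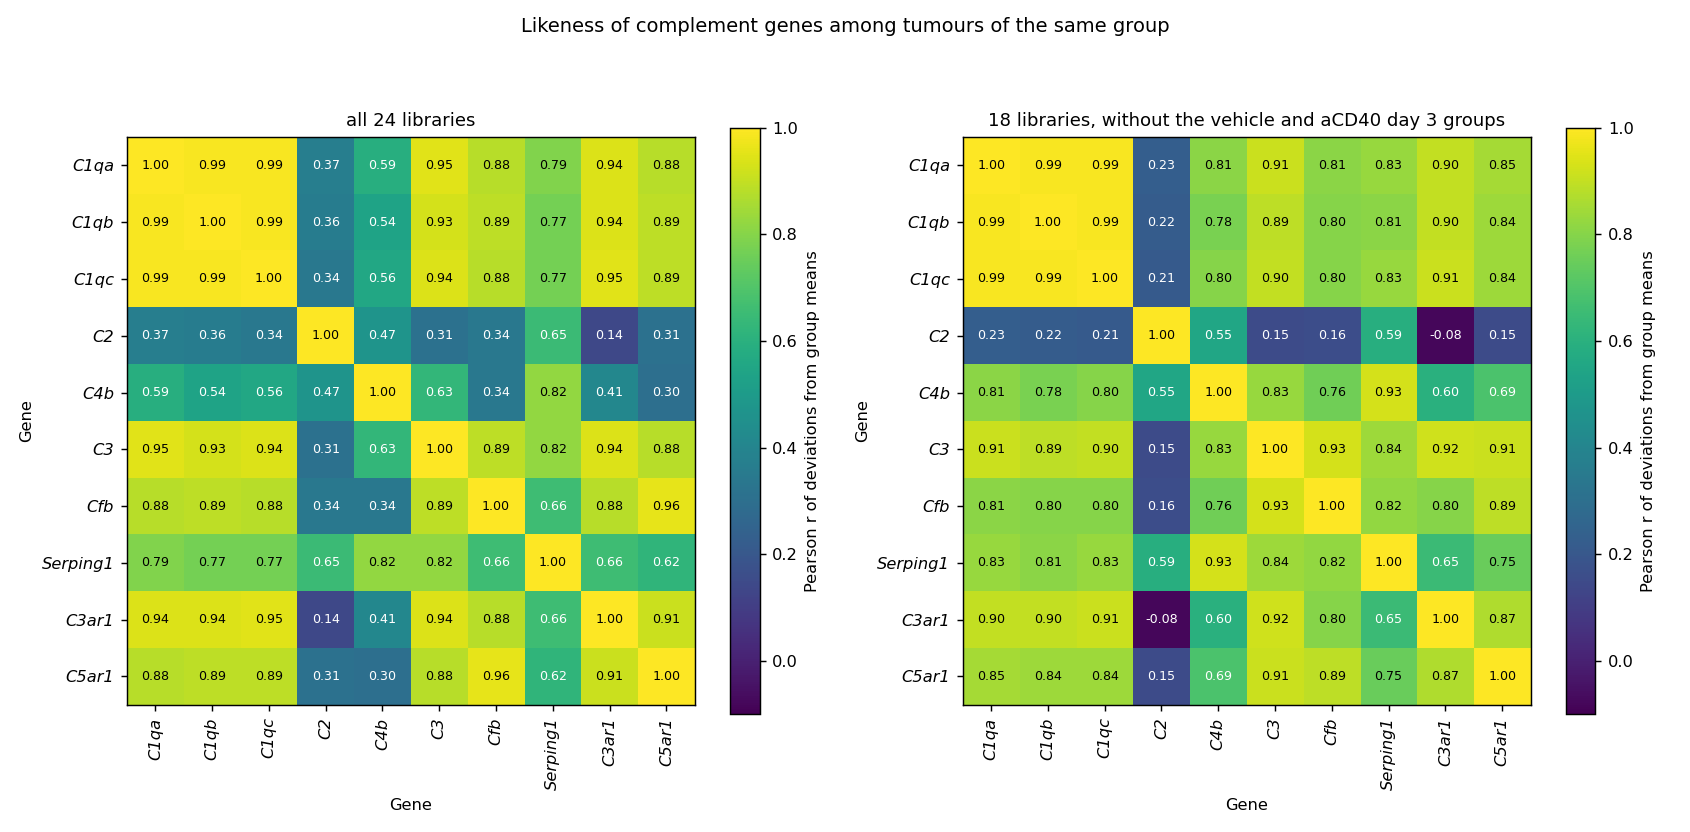
Pearson r between complement genes of log2 CPM deviations from group means, over all 24 libraries (left) and over the 18 libraries outside the vehicle and aCD40 day 3 groups (right). The C1q block is at 0.99 in both panels, C4b and Serping1 are at 0.82 and 0.93, and the row of C2 is the darkest, from 0.14 to 0.65 on the left and from -0.08 to 0.59 on the right.

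Of 41 further complement genes listed, 30 were tested, and edgeR called 0 in any of the 19 comparisons. At day 0 C1s1, a classical pathway protease, had the smallest unadjusted p of the 30 in each of the 3 comparisons with vehicle. It was at 2.2 to 3.71 CPM in vehicle, 4.11 to 19.8 CPM after aCD40, 7.53 to 11.3 CPM after D2C7-IT and 5.45 to 18.1 CPM after the combination, without overlap in any, at log2 fold changes of 1.93 ± 0.67, 1.77 ± 0.67 and 1.96 ± 0.68 (edgeR, unadjusted p = 0.01, 0.017 and 0.0093). These comparisons share the vehicle tumours. C1ra, the partner protease, was at 13.8 to 21.3 CPM after D2C7-IT against 3.01 to 6.39 CPM, at 2.13 ± 0.88 (edgeR, unadjusted p = 0.027, adjusted p = 0.95). At an unadjusted p under 0.05 there were 4 of 30 after D2C7-IT (4.52% of all genes), 1 after aCD40 (1.36%) and 3 after the combination (3.03%), all higher. DESeq2 called 0 of the 30 in each, against 0.619%, 0.0808% and 0.121% of all genes.

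At day 3 the lectin pathway protease Masp2 was at 2.1 to 2.33 CPM after D2C7-IT and 0.901 to 3.18 CPM after the combination against 0.42 to 0.814 CPM in vehicle, at 1.93 ± 0.42 and 1.89 ± 0.42 (edgeR, adjusted p = 0.08 and 0.084). Cr2, a complement receptor best known on B cells, was at 1.25 to 5.97 CPM after aCD40 against 0.56 to 0.874 CPM in vehicle (2.38 ± 0.50, edgeR, adjusted p = 0.27) and 0.592 to 0.747 CPM in the combination (edgeR, adjusted p = 0.11). Clu, a fluid phase inhibitor made by astrocytes, was at 908 to 1130 CPM in the combination against 423 to 756 CPM in vehicle (0.97 ± 0.32, edgeR, adjusted p = 0.11). C4a, the copy of C4b, was at 6.38 to 6.52 CPM after D2C7-IT against 2.75 to 4.86 CPM in vehicle (0.86 ± 0.27, edgeR, adjusted p = 0.081). The high-Egfr libraries had the 3 lowest C4a levels of all 24, from 2.75 to 3.03 CPM. At an unadjusted p under 0.05 there were 4 of 30 after aCD40 (1.91% of all genes), 8 after D2C7-IT (28.2%) and 5 after the combination (24%), all higher. DESeq2 called 1, 3 and 2, against 0.153%, 12.9% and 7.72% of all genes. In vehicle the complement receptor subunit Itgax was at 5.13 to 60.5 CPM at day 3 against 2.42 to 8.52 CPM at day 0 (3.02 ± 0.95, edgeR, adjusted p = 0.11).

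Without the 3 high-Egfr libraries vehicle at day 3 was tumour 1 alone, taken to vary like the other groups, and edgeR called 0 of the 30 in any of these comparisons. Masp2 was then at 1.44 ± 0.60 after D2C7-IT and 1.42 ± 0.60 after the combination (edgeR, adjusted p = 0.8 and 0.71). Cr2 was at 1.86 ± 0.76 after aCD40 (edgeR, adjusted p = 1.0) and lower in the combination than after aCD40 by a log2 difference of -2.0 ± 0.51 (edgeR, adjusted p = 0.36). Clu was at 0.50 ± 0.17 in the combination and C4a at 0.42 ± 0.33 after D2C7-IT (edgeR, adjusted p = 0.71 and 0.81). Itgax in vehicle was at 0.03 ± 1.03 for day 3 against day 0, so that the difference seen with all tumours rested on the high-Egfr libraries. At an unadjusted p under 0.05 there were 7 of 30 after aCD40, 5 after D2C7-IT and 6 after the combination, all higher, against 2.58%, 5.67% and 6.97% of all genes.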

How the data were processed

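The authors deposited raw read counts per gene, whole numbers without normalization, for 24 tumours in 6 tables. Of their 36 columns, 12 repeat another column and 0 of these differ. Per the submitters' processing notes, reads were handled with STAR 2.5.2b, Trimmomatic 0.36, bcl2fastq 2.17 and Subread 1.5.2 (featureCounts), on GRCm38. The annotation release and the overlap setting were not given in the sources used here. Per the labels' protocols the kit was NEBNext Ultra, which does not mark strand. GENCODE M21 named 49056 of 49315 gene identifiers, and exon lengths come from it. Promoters are from RefSeq (GRCm38.p6), whose table held 5 of the 10 members.

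CPM values are scaled by TMM factors. The main test was edgeR 4.0.16 (R 4.3.3) quasi-likelihood on all 24 libraries with 1 mean per group, filterByExpr, and Benjamini-Hochberg adjustment over 22280 genes, called at an adjusted p under 0.05. The SE is the log2 fold change divided by the root of F. DESeq2 1.42.0, other size factors, no filter, only the groups compared, a replicate block, leaving out each tumour and leaving out the 3 high-Egfr libraries were alternatives. The code was tested on simulated data. Replicates are labelled as separate tumours, and all replicate pairs differed beyond counting noise (chi-square per degree of freedom 28.2 to 630). With 3 against 3, an exact permutation test cannot go below p = 0.1, so none is given.

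The members and gene lists were chosen with earlier results of these data known. All members are named. In each comparison up to 3 members and 2 other complement genes of smallest unadjusted p are eligible to be named with their statistics.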

Additional observations from a re-analysis of the deposited data

How the results depend on the processing

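With a replicate block, 0 members were called in all 19 comparisons. The replicate numbers were not treated as pairs: 29 of 84 same-numbered pairs had r above 0.1, and 5 of 24 libraries were closest to their own number. DESeq2 called 3 members for vehicle day 3 against day 0. Leaving out 1 tumour at a time, the members called ranged from 0 to 5 in that comparison. They ranged from 0 to 1 in both single-agent comparisons with vehicle at day 3. For the day difference of D2C7-IT they ranged from 0 to 2. The share of all genes called in those refits is not given. In each comparison only the 3 members of smallest unadjusted p were followed through the alternatives. Of their 747 alternative fold changes, 23 reversed, 9 passed the threshold and 715 kept their direction and call. Changes in the other members lie outside these counts. They include the calls of C1qb and C1qc (vehicle between days) and of C5ar1 (aCD40 against vehicle, day 3) in refits without 1 tumour. Among these followed fold changes, some log2 values reversed without the 3 high-Egfr libraries. Against vehicle at day 3 they were Cfb 1.43 and C5ar1 0.98 (D2C7-IT). For the combination against aCD40 at day 3 they were Cfb 1.01 and C5ar1 1.45. Between days they were Cfb -0.60 (vehicle) and -0.13 (aCD40). For non-additivity at day 3 they were C1qb -0.34 and C1qc -0.23. For day differences they were C1qa 0.23 (aCD40), C3 0.38 (D2C7-IT), C5ar1 0.37 and Cfb 1.79 (combination). Over all 10 members more signs turned. D2C7-IT against vehicle at day 3 went from 2 higher and 8 lower to 10 higher. The combination against vehicle at day 3 went from 4 higher and 6 lower to 10 higher. Leaving out 1 tumour, some ranges of the followed fold changes crossed or reached 0. For the combination against aCD40 at day 0 they were Serping1 -0.61 to 0.39, C3ar1 -1.50 to 0.66 and C4b -0.14 to 1.00. For the same at day 3 they were Cfb -1.79 to 1.00 and C5ar1 -0.99 to 1.45. Others were Cfb -0.13 to 3.17 (aCD40 between days) and C3 -1.51 to 0.21 (non-additivity, day 3). For day differences they were C2 -0.02 to 0.74 and C1qa -1.12 to 0.00 (aCD40), and C2 -0.22 to 0.55 (combination). Members not followed also changed sign. For aCD40 against vehicle at day 0, 10 of 10 were higher with all tumours. Without aCD40 tumour 3, 5 were higher and 5 lower. The cause was not tested. C2, Cfb and C5ar1 had as few as 39, 22 and 36 counts in a library, against 126 or more for every other member.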
